A study of Cicer arietinum with 24 samples.

Results

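DNA methyltransferases, the enzymes that add methyl groups to cytosines, are represented here by 6 chickpea genes that the study names by identifier, out of 28269 genes with a value. They are CaMET1 (Ca_18432), the chromomethylases CaCMT1 (Ca_20580), CaCMT2 (Ca_17866) and CaCMT3 (Ca_23587), and the domains rearranged methyltransferases CaDRM1 (Ca_12577) and CaDRM2 (Ca_03062). They were picked by name and not by their values, and all 6 had values in these data. RNA sequencing covered 24 samples of Himchana 1, a small-seeded chickpea cultivar grown in the field. Whole seeds were taken at 7 stages, S1 to S7, of which S1 to S3 cover early, mid and late embryogenesis, S5 is mid maturation, S7 is late maturation and S4 and S6 are known here by number only. Leaves came from plants whose seeds were at mid maturation. Each of these 8 groups had 3 biological replicates, the labels give no treatment, and a whole seed holds the embryo and seed coat together, with endosperm in the early stages.

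In plants, methylation is kept up by different enzymes in different sequence contexts, and the roles given here are known from Arabidopsis. MET1 copies CG methylation onto the new strand after DNA replication, CMT3 acts at CHG sites, CMT2 acts at CHH sites in condensed heterochromatin, and DRM2 methylates CHH sites guided by small RNAs (H is any base but G). Seed development runs through a phase of cell division, a phase of reserve filling and a phase of drying. Whether each numbered CaCMT or CaDRM corresponds to the Arabidopsis gene of the same number was not examined here. The names are those of the study.

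The deposited values are FPKM, by definition the fragments of a transcript scaled by its length and by the mapped fragments of the library. The 3 replicates of a group are merged into 1 value. The values therefore carry no replicate error, no p-value or SD can be given, and differences describe these 8 merged libraries only. Since FPKM is per length, levels of different genes can be set side by side within a library. The depth is unknown, so low values are of unknown precision, and a value of 0 is only said to be listed at 0. The 75th percentile of the loci lay between 10.7 and 11.7 FPKM in all 8 libraries, whereas their sum ranged from 723136 at S2 to 2515731 at S7. Whether the values were also scaled between libraries is not given in the sources used here. The identifiers carry no tissue marker names, so the stage labels were set against gene lists of the study. The median of 163 grain filling genes was highest at S5 (10.3 FPKM) and lowest at S7 (3.44 FPKM). It was 8.72 FPKM at S1, 9.12 at S2, 7.99 at S3 and 8.94 at S4, then 3.95 at S6, and 5.90 FPKM in leaf. The grain filling list thus set S6 and S7 below the earlier stages but hardly set S5 apart from S1 to S4. The median of 162 desiccation genes was also highest at S5 (13.7 FPKM) and was 7.50 FPKM at S1, 9.44 at S2 and 6.90 at S3, then 10.3 at S4 and, after S5, 11.7 at S6 and 9.24 at S7, with 13.6 FPKM in leaf. The desiccation list thus did not single out the late seeds.

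The 6 genes fell into 3 kinds of profile. CaMET1, CaCMT2 and CaCMT3 were highest at S1 and low in late seeds and leaf. As deposited, CaCMT1 kept its level until S5 and then dropped away, and CaDRM1 and CaDRM2 stayed within 2-fold over the seed stages. All 6 genes reached at least 1 FPKM at S1, S2, S3 and S4, 4 did so at S5, 2 at S6 and at S7 and 3 in leaf. The summed FPKM of the 6 genes was 106 at S1, 59.7 at S2 and 49.5 at S3, then 56.5 at S4, 46.6 at S5, 29.8 at S6 and 27.5 at S7, against 17.0 in leaf. In whole seeds, fewer cells of a type and less RNA per cell cannot be told apart.

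**Figure D1:**
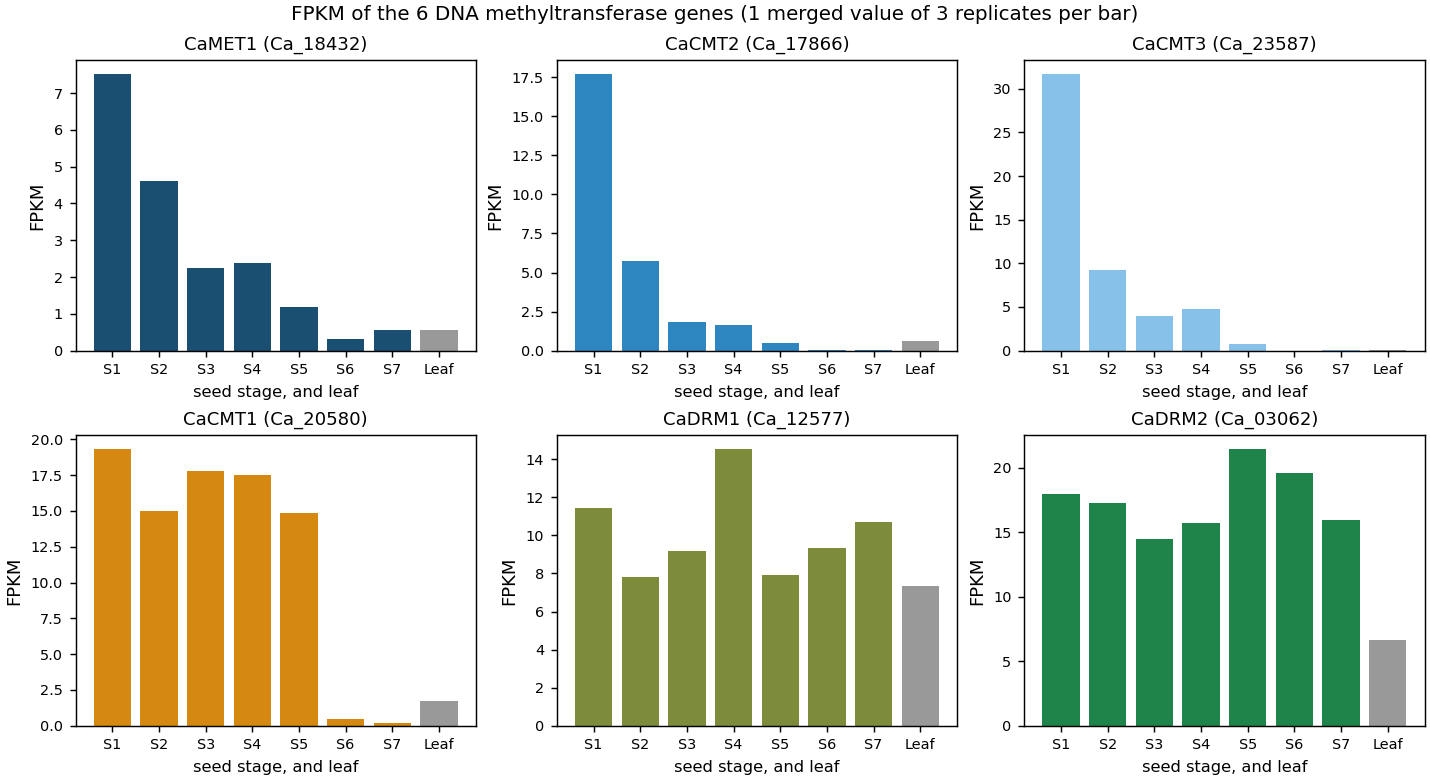
FPKM of each of the 6 DNA methyltransferase genes (vertical axis, from 0, with its own range for each gene) in the 7 seed stages and leaf (horizontal axis), where each bar is the merged value of 3 replicates and has no error bar. CaMET1, CaCMT2 and CaCMT3 stand highest at S1 (7.52, 17.7 and 31.7 FPKM), CaCMT1 stays between 14.9 and 19.3 FPKM until S5, and both CaDRM genes lie at 6.63 FPKM or more in every library.

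CaMET1, the maintenance enzyme of CG methylation, had 7.52 FPKM at S1, 4.61 at S2 and 2.24 at S3, then 2.39 at S4, 1.18 at S5, 0.324 at S6 and 0.555 at S7, and 0.564 FPKM in leaf. It was the lowest of the 6 genes at S1 and S2 and yet stayed above CaCMT2 and CaCMT3 from S5 to S7. The S1 level was 23.2 times the S6 level. Among all genes of a library, CaMET1 stood at percentile 60.2 at S1, 45.8 at S3, 42.3 at S6 and 46.2 at S7, and at percentile 39.7 in leaf. The median gene had 3.42 FPKM at S3 and 1.06 FPKM at S7, so percentiles and FPKM need not run alike between libraries. It exceeded its leaf level in 5 of 7 seed stages, those from S1 to S5.

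CaCMT3, named after the CHG methylase, showed the highest value of any methyltransferase gene in any library. It had 31.7 FPKM at S1, 9.29 at S2 and 3.92 at S3, then 4.72 at S4 and 0.715 at S5, was listed at 0 at S6, and had 0.0499 FPKM at S7 and 0.114 FPKM in leaf. Its percentile among all genes was 84.5 at S1, 63.2 at S2 and 51.5 at S3, then 53.2 at S4 and 40.0 at S5, and 33.3 in leaf. The gene thus ranked highest in the youngest seeds and near the middle of all genes at S3 and S4.

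CaCMT2, named after the enzyme of heterochromatic CHH methylation, had 17.7 FPKM at S1, 5.75 at S2 and 1.82 at S3, then 1.66 at S4, 0.482 at S5, 0.0383 at S6 and 0.0347 at S7, and 0.630 FPKM in leaf. It was the only 1 of the 6 genes whose deposited value was lower at each stage than at the stage before it, but the change at S4 against S3 was 0.19 after rescaling to the same sum, and S6 and S7 were both near 0. The S1 value was 511 times the S7 value, a ratio that rests on a denominator near 0. Unlike CaMET1 and CaCMT3, it had a lower value at S5 than in leaf, and it exceeded leaf in 4 of 7 seed stages.

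CaCMT1, the third chromomethylase, had 19.3 FPKM at S1, 15.0 at S2 and 17.8 at S3, then 17.5 at S4, 14.9 at S5, 0.439 at S6 and 0.212 at S7, and 1.72 FPKM in leaf. As deposited, the first 5 seed stages thus lay within a narrow band, and the last 2 lay below leaf. The log2 change at S5 against S4 was -0.22 as deposited but -1.56 after rescaling to the same sum, so the band depends on the scaling. The S5 value was 33.9 times the S6 value, and CaCMT1 stood at percentile 43.8 among all genes at S6, against percentile 71.8 at S5. CaCMT1 was also the only 1 of the 6 genes assembled as more than 1 locus, and its values are the sum of both. The minor locus had 0.188 FPKM at S1, 0.112 at S2 and 1.47 at S3, then 1.17 at S4, 2.92 at S5 and 0.0963 at S6, and it was listed at 0 at S7 and in leaf. It made up 0.974% of the CaCMT1 value at S1 and 19.6% at S5. The major locus alone had 19.1 FPKM at S1, 16.4 at S4, 11.9 at S5 and 0.342 at S6, so it too was low from S6 on.

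CaDRM1, of the family that acts in RNA-directed methylation, had 11.4 FPKM at S1, 7.81 at S2 and 9.20 at S3, then 14.5 at S4, 7.91 at S5, 9.35 at S6 and 10.7 at S7, and 7.34 FPKM in leaf. CaDRM2 had 18.0 FPKM at S1, 17.3 at S2 and 14.5 at S3, then 15.7 at S4, 21.4 at S5, 19.6 at S6 and 15.9 at S7, and 6.63 FPKM in leaf. Over the seed stages the highest deposited CaDRM1 value was 1.86 times the lowest (S4 over S2), and the highest deposited CaDRM2 value was 1.48 times the lowest (S5 over S3). These ranges are small beside those of the other 4 genes, and neighbours in the order of stages cannot be said to differ, since no spread over replicates is known. CaDRM2 exceeded CaDRM1 in all 7 seed stages, whereas CaDRM1 was the higher in leaf.

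The level of the CaDRM genes between libraries depends on how libraries are scaled to each other, which the sources used here do not state. As deposited, both exceeded leaf in 7 of 7 seed stages. After rescaling each library to the same sum, CaDRM2 still did so in 7 stages but CaDRM1 in 4, and the highest seed stage of CaDRM2 was then S2 and not S5. Under scaling by the upper quartile, CaDRM1 exceeded leaf in 5 stages and CaDRM2 was highest at S1. This quartile was taken over the genes with a nonzero FPKM in a library, and differs from the percentile of all loci given above. The highest seed stage of the other 5 genes was the same under every scaling tried, S1 for CaMET1 and the 3 CaCMT genes and S4 for CaDRM1. After rescaling to the same sum, the highest seed value was 4.92 times the lowest for CaDRM1 and 3.78 times for CaDRM2. By the upper quartile it was 2.72 and 2.09 times, and by the median ratio 1.85 and 1.52 times. Both genes thus stayed within 2-fold over the seed stages only as deposited and by the median ratio.

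Ratios within a library do not depend on that scaling. Of the summed FPKM of the 6 genes, CaMET1, CaCMT2 and CaCMT3 together held 53.9% at S1, 32.9% at S2 and 16.1% at S3, then 15.5% at S4, 5.09% at S5, 1.22% at S6 and 2.33% at S7, and 7.69% in leaf. The CaDRM genes held 27.8% at S1, 42.0% at S2 and 47.9% at S3, then 53.5% at S4, 63.0% at S5, 97.3% at S6 and 96.9% at S7, and 82.2% in leaf. CaCMT1 filled the middle of development, with a share between 25.1% and 36.0% from S2 to S5, against 18.3% at S1, 1.47% at S6, 0.772% at S7 and 10.1% in leaf. The gene with the highest FPKM among the 6 was CaCMT3 at S1, CaDRM2 at S2, CaCMT1 at S3 and S4, CaDRM2 from S5 to S7 and CaDRM1 in leaf.

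**Figure D2:**
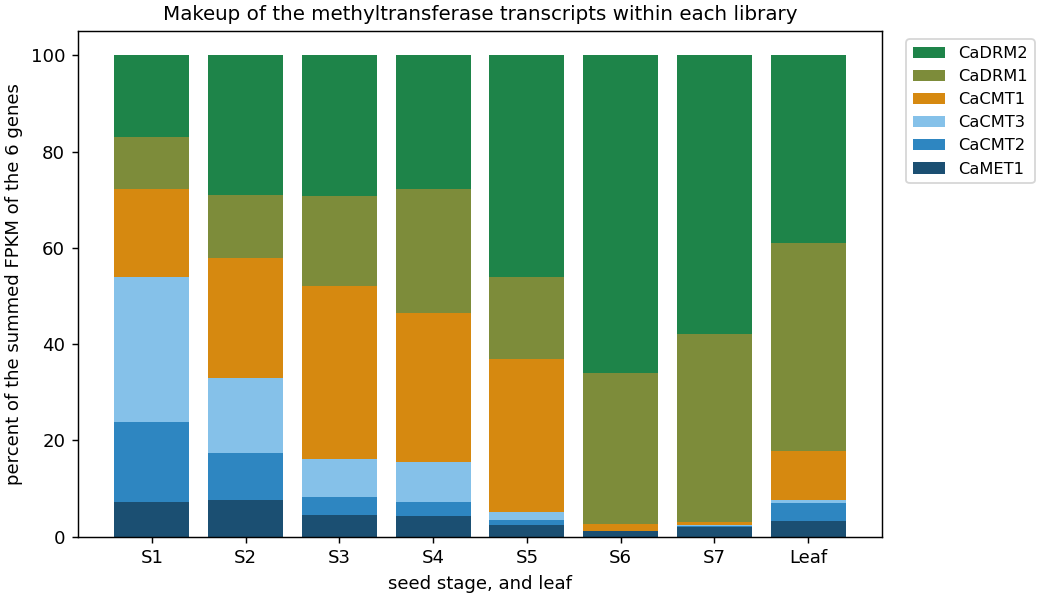
Share of each of the 6 genes in their summed FPKM (vertical axis, percent) in the 7 seed stages and leaf (horizontal axis), with 1 stacked bar for each merged library. The blue segments of CaMET1, CaCMT2 and CaCMT3 make up 53.9% at S1 and 1.22% at S6, while the green segments of the CaDRM genes make up 27.8% at S1, 97.3% at S6 and 82.2% in leaf.

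The ratio of CaDRM1 + CaDRM2 to CaMET1 + CaCMT2 + CaCMT3 was 0.516 at S1, 1.28 at S2 and 2.97 at S3, then 3.45 at S4, 12.4 at S5, 79.9 at S6 and 41.6 at S7, and 10.7 in leaf. The CaDRM transcripts were thus the fewer at S1 only. Most of this shift came from the denominator, whose summed FPKM was 0.640 at S7 against 56.9 at S1, while that of the CaDRM genes was 26.6 at S7 against 29.4 at S1. Adding CaCMT1 to the denominator turned the direction at S2 and S3, with a log2 ratio of -0.46 in place of 0.35 at S2 and of -0.12 in place of 1.57 at S3. Leaf lay between S4 and S5 in this ratio. With CaCMT1 in the denominator its log2 ratio was 2.21, between those of S5 (0.77) and S7 (4.96).

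**Figure D3:**
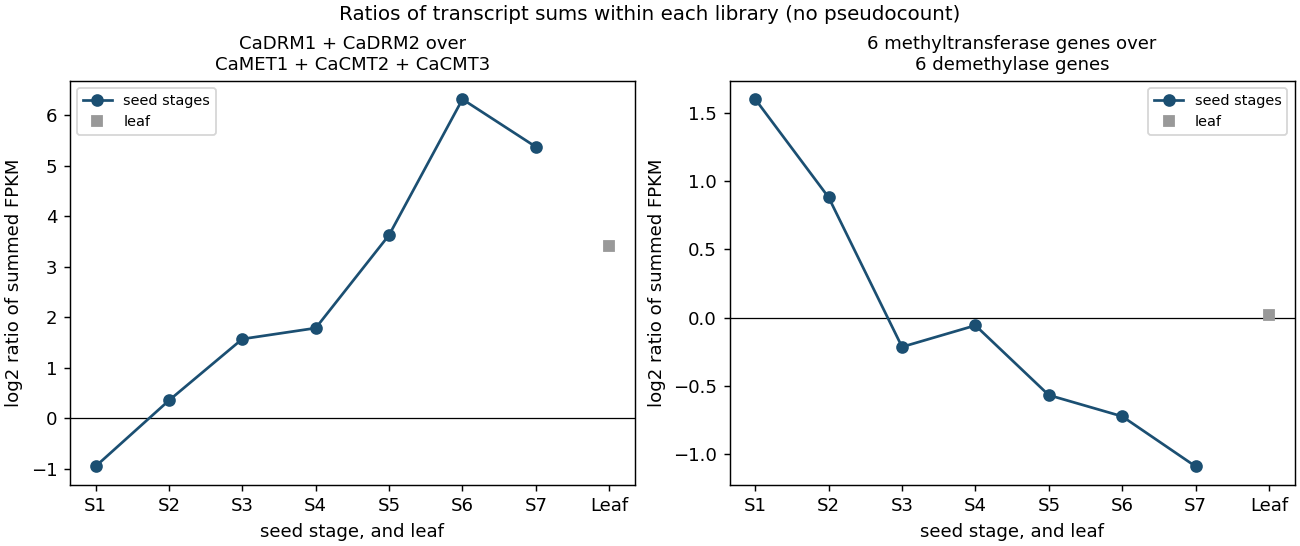
Log2 of ratios of summed FPKM within a library (vertical axes, no pseudocount) in the 7 seed stages (joined points) and leaf (square). On the left, the CaDRM genes over CaMET1, CaCMT2 and CaCMT3 lie at -0.95 at S1, 6.32 at S6, 5.38 at S7 and 3.42 in leaf, and on the right, the 6 methyltransferase genes over 6 demethylase genes lie at 1.60 at S1, -1.09 at S7 and 0.02 in leaf.

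Between successive stages, changes were taken as the difference of log2(FPKM + 1), later minus earlier, and were counted at 2-fold. Low values change less on this scale than as FPKM. Over 36 combinations of gene and step, 6 were at least 2-fold lower and 0 were at least 2-fold higher, where between 2.29% and 17.1% of all genes were lower and between 1.39% and 18.5% higher at a step. CaCMT3 accounted for 3 of these, CaCMT2 for 2 and CaCMT1 for 1, while CaMET1, CaDRM1 and CaDRM2 passed the limit at no step.

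At S2 against S1, 2 of 6 genes were lower, CaCMT2 (log2 change -1.47) and CaCMT3 (-1.67). Of all genes, 2.41% were lower and 4.29% higher at this step. CaMET1 changed by -0.60 and CaCMT1 by -0.35, and CaDRM2 by -0.05, so that the 3 early genes already differed in the size of their change.

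At S3 against S2, CaCMT2 (-1.26) and CaCMT3 (-1.06) were again lower, where 6.05% of all genes were lower and 5.67% higher. CaMET1 changed by -0.79, below the limit of 2-fold, although its FPKM was 2.06 times lower before 1 was added. At S4 against S3, 0 of 6 genes passed the limit in either direction. The background of this step was also low, with 2.29% of all genes lower and 2.39% higher, and CaDRM1 had the largest change of the 6 genes (0.61).

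At S5 against S4, CaCMT3 alone was lower (-1.74), where 7.99% of all genes were lower and 7.57% higher. CaCMT2 changed by -0.84, CaDRM1 by -0.80 and CaMET1 by -0.64, whereas CaDRM2 changed by 0.43. S6 against S5 was the broadest of the 6 steps, with 17.1% of all genes lower and 18.5% higher. Only CaCMT1 passed the limit there (-3.46), CaMET1, CaCMT2 and CaCMT3 being already at 1.18 FPKM or less at S5. With 0.1 added to the FPKM in place of 1, CaMET1 (-1.59), CaCMT2 (-2.07) and CaCMT3 (-3.03) passed it too. At S7 against S6, 0 of 6 genes passed the limit, where 3.22% of all genes were lower and 1.39% higher, and the 6 changes lay between -0.29 (CaDRM2) and 0.23 (CaMET1).

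The step counts depend on the scaling of the libraries. After rescaling to the same sum, 11 of 36 combinations of gene and step were lower, 4 of the additional 5 at S5 against S4 (CaMET1, CaCMT1, CaCMT2 and CaDRM1), where the median change of broadly expressed genes was then -1.27 in place of 0.02. The share of higher genes among all changed genes moved with it, to 79.4% in place of 64.1% at S2 against S1, 15.4% in place of 48.4% at S3 against S2, 76.7% in place of 51.1% at S4 against S3 and 5.38% in place of 48.7% at S5 against S4. By the upper quartile it was 31.0% at S5 against S4 and 37.4%, in place of 51.9%, at S6 against S5. The 6 combinations counted as deposited were at least 2-fold lower under each of the 3 other scalings too.

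**Figure D4:**
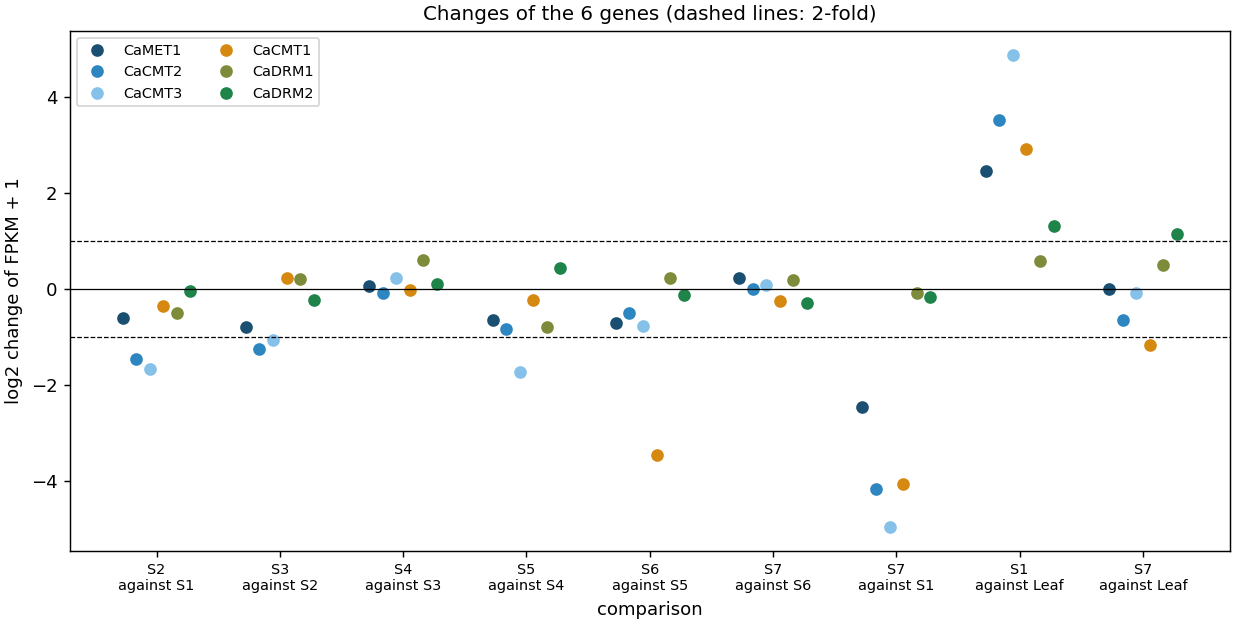
Change of each of the 6 genes on the log2(FPKM + 1) scale (vertical axis) in 9 comparisons (horizontal axis), with dashed lines at a 2-fold change and 1 point for each gene and comparison of merged libraries. Points below the lower line are CaCMT2 and CaCMT3 at S2 and S3, CaCMT3 at S5, CaCMT1 at S6, CaMET1 and the 3 CaCMT genes in S7 against S1, and CaCMT1 in S7 against leaf, and the 2 CaDRM genes stay between -0.80 and 0.61 in all comparisons of seed stages.

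Over the whole course, at S7 against S1, 4 of 6 genes were lower and 0 higher, where 20.8% of all genes were lower and 20.8% were higher. The log2 changes were -2.45 for CaMET1, -4.07 for CaCMT1, -4.18 for CaCMT2 and -4.96 for CaCMT3. They were -0.09 for CaDRM1 and -0.16 for CaDRM2. A total of 12212 genes reached 1 FPKM in each of the 8 libraries, and their median change was 0.49 in this comparison, so relative to it CaDRM1 stood at -0.58 and CaDRM2 at -0.65. Rescaling to the same sum moved that median to -0.97 and the share of higher genes among all changed genes from 50.0% to 17.8%, and it placed CaDRM1 at -1.53 and CaDRM2 at -1.66, which is -0.56 and -0.69 relative to the median. All 6 genes were then lower. By the upper quartile the share of higher genes was 30.6%, and 4 genes were lower. The 4 lower genes were lower under each scaling.

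At S1 against leaf, 5 of 6 genes were higher and 0 lower, where 17.0% of all genes were higher and 17.3% lower. The log2 changes were 4.88 for CaCMT3, 3.52 for CaCMT2, 2.90 for CaCMT1, 2.45 for CaMET1 and 1.31 for CaDRM2. CaDRM1 changed by 0.58 and did not pass the limit. The share of higher genes among all changed genes was 49.6% as deposited and 61.5% after rescaling to the same sum, and the same 5 genes were higher under each scaling. As FPKM, the S1 value was 1.56 times the leaf value for CaDRM1 and 278 times for CaCMT3, whose leaf value of 0.114 FPKM is of unknown precision.

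At S7 against leaf, 1 of 6 genes was higher, CaDRM2 (1.15), and 1 was lower, CaCMT1 (-1.16). Of all genes, 20.8% were higher and 20.3% lower in this comparison, so this count of members lay near the background. CaMET1 (-0.01) and CaCMT3 (-0.09) were low in late seeds and in leaf alike, and CaCMT2 (-0.66) was below the limit on this scale although its FPKM was 0.0347 at S7 and 0.630 in leaf. The call of CaDRM2 was lost under every other scaling, where its change was 0.06 (same sum), 0.98 (median ratio) and 0.60 (upper quartile). The share of higher genes among all changed genes was 50.7% as deposited, 26.3% with the same sum and 38.6% by the upper quartile.

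The 3 early genes also ran alike over all 8 libraries. Pearson's r of log2(FPKM + 1) was 0.99 between CaMET1 and CaCMT3 (Spearman's rho 1), 0.97 between CaMET1 and CaCMT2 (rho 0.93) and 0.97 between CaCMT2 and CaCMT3 (rho 0.93). Without S1 and S2, the libraries farthest from the median, r was 0.98, 0.93 and 0.93, so the likeness did not rest on the youngest seeds alone. These are descriptions over 8 merged libraries of 1 course of development, which share its order and their scaling, and they are given with no p.

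CaCMT1 had an r of 0.80 with CaMET1, 0.78 with CaCMT3 and 0.69 with CaCMT2. Without S6 and S7, its r with CaCMT2 was 0.46 and with CaCMT3 0.67, so these relations rested in part on the 2 late stages in which all 3 were low. CaDRM1 and CaDRM2 had an r of 0.29 with each other (rho 0.14), which was -0.45 over the 7 seed stages without leaf. With the other 4 genes, the CaDRM genes had an r between 0.14 and 0.35. These values depend on the scaling and on single libraries. After rescaling to the same sum, the r of the CaDRM genes with the other 4 genes lay between 0.78 and 0.93 and that of CaDRM1 with CaDRM2 was 0.81. Without leaf, the r of CaDRM2 with the other 4 genes lay between -0.23 and -0.11, and without S6 and S7 its r with CaCMT1 was 0.91. Whether the CaDRM profiles run with those of the other genes therefore cannot be read from these values.

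The genes most like each member were sought among genes with a mean of at least 1 FPKM and a range of at least 1 on the log2 scale, about 17058 for each member. The files give them no names. For CaMET1 they were Ca_21212 and Ca_21215 (r = 0.995 for both), which share 1 locus and therefore 1 set of values, 7.39 FPKM at S1 and 0.461 at S5. For CaCMT3 they were Ca_20141 (r = 0.997) and Ca_14684 (r = 0.995), and for CaCMT2 they were Ca_07371 (r = 0.995) and Ca_16797 (r = 0.994). CaCMT1 was most like Ca_09527 and Ca_09707 (r = 0.993 for both). Ca_09527 dropped at the same step, with 45.1 FPKM at S5 and 6.43 FPKM at S6, but by a smaller factor than CaCMT1 (14.9 and 0.439 FPKM).

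CaDRM2 was most like Ca_04768 (r = 0.984) and Ca_17224 (r = 0.971), and CaDRM1 was most like Ca_03746 (r = 0.855) and Ca_22420 (r = 0.840). An r of at least 0.95 was reached by 326 genes with CaMET1, 476 with CaCMT1, 199 with CaCMT2, 287 with CaCMT3, 17 with CaDRM2 and 0 with CaDRM1. CaDRM1 itself varied by less than the range asked of its partners, so genes as flat as CaDRM1 were not compared, and nothing is read from its count.

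Genes of DNA replication were set beside the members. The study lists CDC6 (Ca_15618), which loads the replicative helicase onto DNA, and 3 genes it calls minichromosomes. These are read here as minichromosome maintenance proteins, the kind that forms that helicase, but their identity was not checked. The study named these genes for higher expression in the large-seeded cultivar JGK 3 than in Himchana 1 at S3 and/or S5. Their lower values at those stages are thus in part a matter of choice, and they are no independent measure of dividing tissue. CDC6 had 8.03 FPKM at S1, 2.10 at S2 and 1.22 at S3, then 1.93 at S4, 0.587 at S5, 0.0572 at S6 and 0.0588 at S7, and 0.116 FPKM in leaf. This order of the 8 libraries is the same as that of CaCMT3 and CaMET1. Its r was 0.98 with CaCMT3, 0.97 with CaMET1 and 0.96 with CaCMT2, against 0.76 with CaCMT1, 0.40 with CaDRM1 and 0.28 with CaDRM2.

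The minichromosome genes also had their highest values at S1. Ca_09549 had 46.5 FPKM at S1, 3.99 at S5 and 6.14 at S7, and 0.390 FPKM in leaf, so it kept a level in late seeds that CaCMT3 did not. Ca_15408 had 33.3 FPKM at S1, 3.02 at S5 and 1.61 at S7, and 0.585 FPKM in leaf. Ca_12014 had 3.52 FPKM at S1, 1.20 at S5 and 0.262 at S7, and 1.15 FPKM in leaf. At S7 against S1, 4 of these 4 genes were at least 2-fold lower (20.8% of all genes), and at S1 against leaf 4 of 4 were at least 2-fold higher (17.0% of all genes).

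**Figure D5:**
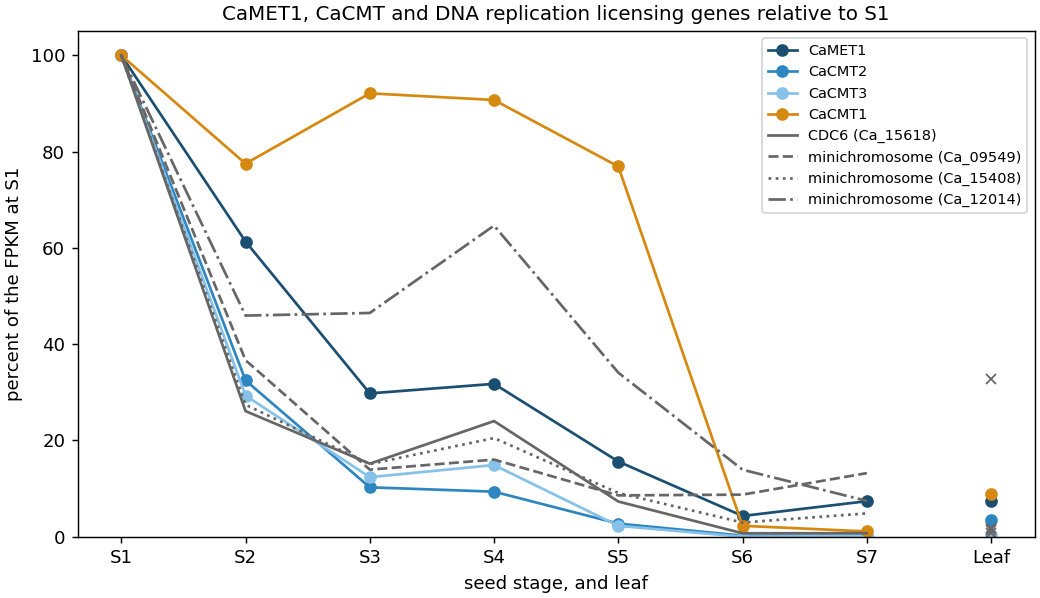
FPKM of CaMET1, the 3 CaCMT genes (coloured) and 4 DNA replication genes (grey lines, with grey crosses for leaf) as a percent of the S1 value of the same gene (vertical axis) in the 7 seed stages and leaf (horizontal axis). At S3 stage, CaCMT2 and CaCMT3 lie at 10.3% and 12.4% and CDC6 at 15.2%, whereas CaCMT1 lies at 92.1%, and at 76.9% at S5.

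The wider cell cycle list of the study, taken without the 3 methyltransferase genes it held, has 315 genes. It was put together by the study from gene ontology terms in another cultivar, JGK 3, with regard to changes there. At S7 against S1, 139 of them (44.1%) were lower and 52 (16.5%) higher, against 20.8% of all genes each way. At S1 against leaf 142 (45.1%) were higher and 32 (10.2%) lower, against 17.0% and 17.3% of all genes. Its median was 7.46 FPKM at S1, 5.74 at S2 and 5.18 at S3, then 5.48 at S4, 2.83 at S5, 1.48 at S6 and 1.39 at S7, and 2.02 FPKM in leaf. Like CaMET1, CaCMT2 and CaCMT3, this median was highest at S1 and low in late seeds and leaf. Its fall by S3 was smaller, as these 3 genes then lay at 29.8%, 10.3% and 12.4% of their S1 values. The part of dividing tissue in the values of these 3 genes was not tested. Of the 249 list genes that passed the limits on mean and range, 34 (13.7%) had an r of at least 0.95 with CaCMT3, 32 (12.9%) with CaMET1, 21 (8.43%) with CaCMT2 and 6 (2.41%) with CaCMT1. Of all genes compared, 1.68% had such an r with CaCMT3, 1.91% with CaMET1, 1.17% with CaCMT2 and 2.79% with CaCMT1. The cell cycle share was thus above the share of all genes for the 3 early genes and near it for CaCMT1. With CaDRM2 and with CaDRM1, 0 list genes reached that r, where 0.0997% and 0% of all genes compared did. Nothing is read from these 2 counts.

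The 6 demethylase genes that the study lists, whose products remove methylated cytosine, gave the counterpart. Their summed FPKM was 34.9 at S1, 32.5 at S2 and 57.4 at S3, then 58.8 at S4, 69.0 at S5, 49.1 at S6 and 58.4 at S7, and 16.8 in leaf. The methyltransferase genes had 3.03 times this sum at S1, 1.84 times at S2, 0.862 times at S3, 0.962 times at S4, 0.675 times at S5, 0.606 times at S6 and 0.470 times at S7, and 1.01 times in leaf. The ratio was thus highest in the youngest and lowest in the oldest seeds. The demethylase sum includes 21.6 FPKM at S6 and 23.2 FPKM at S7 from the second locus of Ca_20137, which was listed at 0 at S5. The low ratio at S6 and S7 therefore rests in part on that locus, and the ratio was not taken without it.

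No demethylase gene had the profile of CaMET1, CaCMT2 and CaCMT3, the highest r with CaCMT3 being 0.47 (Ca_17547). Ca_17547 had 17.7 FPKM at S1, 37.5 at S5 and 5.63 at S7, and 2.37 FPKM in leaf, which made it 2-fold lower at S7 against S1 (log2 change -1.50), and its r with CaCMT1 was 0.80. Ca_20137 had 10.5 FPKM at S1, 14.2 at S5 and 42.3 at S7, and 9.57 FPKM in leaf, and it was the only 1 of the 6 to be at least 2-fold higher at S7 against S1 (1.91). After rescaling to the same sum, this change of Ca_20137 was 0.38, under the limit, and its highest seed stage was S4. The values of Ca_20137 are the sum of 2 loci with unlike profiles. The first had 9.26 FPKM at S1, 14.2 at S5 and 19.1 at S7, and 1.27 FPKM in leaf. The second had 1.28 FPKM at S1, was listed at 0 at S5, and had 23.2 FPKM at S7 and 8.30 FPKM in leaf. The rise of the summed value at S7 thus rests in part on the second locus. Ca_17326 and Ca_17329 were highest at S5 (4.37 and 10.2 FPKM). The remaining Ca_08414 and Ca_07031 were highest at S7 (9.05 FPKM) and S4 (0.945 FPKM).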

How the data were processed

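Per the study's methods, the authors used NGS QC Toolkit for read filtering, TopHat for mapping to the chickpea genome and Cufflinks for FPKM, and the deposited FPKM hold 1 value per locus and group for 3 replicates. How replicates were merged and libraries scaled is not given in the sources used here. Each library lists 35234 loci. Loci of a gene's own identifier were summed, and loci joining several identifiers served only the 3158 genes without one. Ratios of loci under 0.1 FPKM between libraries showed no common step, so no reads were recovered.

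Changes are log2((FPKM + 1)/(FPKM + 1)), later over earlier or seed over leaf, counted at 2-fold in 9 comparisons without a test. Genes named are the 6 members, the study's 6 demethylase and 4 replication genes, and the 2 genes with the highest Pearson r to each member. Members and lists were chosen with earlier results of these data known. The counting was tested on simulated data. A table of 29938 RefSeq genes matched 0 identifiers, so no sequence or coordinate is given. Python 3.11.15, numpy 2.4.6, pandas 2.3.3, scipy 1.17.1 and matplotlib 3.10.9 were used. Alternatives were other pseudocounts, scalings, a filter at 1 FPKM, and the highest locus alone.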

Additional observations from a re-analysis of the deposited data

How the results depend on the processing

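No paired analysis was possible because each group has 1 merged value, and neither leaving out a replicate nor a replicate block could be tried. The depth is unknown, which limits every value near 0. The counts at S1 against leaf were the same under every alternative tried, and so were those at S7 against S1, except that 6 genes in place of 4 were lower after rescaling to the same sum. The number of genes lower at S7 against leaf was 2 with a pseudocount of 0.1 and 3 with 0.01, in place of 1, and the number higher was 0 under each of the 3 other scalings, in place of 1. Over successive stages, 11 combinations of gene and step were lower with a pseudocount of 0.1, 13 with 0.01 and 11 after rescaling to the same sum, in place of 6. With a pseudocount of 0.01, 1 was higher in place of 0 (CaCMT3 at S7 against S6, where it is listed at 0). With CaCMT1 in the denominator, the log2 ratio of CaDRM to CaMET1 and CaCMT was -0.46 at S2 and -0.12 at S3, turning its sign, and 0.20 at S4, 0.77 at S5, 5.18 at S6 and 2.21 in leaf. The log2 ratio of CaDRM2 at S5 to its highest other library was -1.23 after rescaling to the same sum and -0.036 by the upper quartile, in place of 0.13. Of 45 correlations between members under the alternatives, 19 moved by over 0.1, 9 of them under the same sum, where the 9 pairs with a CaDRM gene had an r between 0.78 and 0.93 in place of 0.14 to 0.35, and 8 without leaf. The r of CaCMT1 and CaCMT2 was 0.82 with a pseudocount of 0.1. Of 369 values of single log2 changes under the alternatives, 341 kept their side of the 2-fold limit, 25 newly passed it and 3 no longer did, all 3 of them CaDRM2 at S7 against leaf. The causes were not tested, beyond the smaller pseudocounts giving low values more weight.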
